A study of Mus musculus with 18 samples.

Results

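The genes described are the macrophage receptors Cd163, Cd209e and Cd84 and the lipoxygenase gene Alox15, 4 of the 768 genes measured. They were taken by symbol from the deposited table. They were chosen by their measured values, which stood high in the Treated Tumor samples given dendritic cells and antibody together, above all in replicate 2. The tumors grew in female BALB/c mice from TUBO, a single cell line of mouse mammary carcinoma that overexpresses HER2/neu. Treatment lasted 3 weeks, with dendritic cells placed in the tumor (HER2 DC1), with an antibody that blocks semaphorin 4D (anti-Semaphorin4D), or with both (HER2 DC1+aSEMA4D, here the combination). RNA was read on a NanoString nCounter panel for metabolic pathways, which counts barcoded probes bound to RNA without amplification. Each of the 4 arms, the last being an Untreated Control, was sampled in a Treated Tumor group and in an Untreated Tumor group, all taken at the same time point. Each of the 2 combination groups had 3 samples and each of the 6 other groups had 2, which makes 18 samples. The labels do not say which tumor of a control mouse counts as treated, or whether each sample is its own mouse. P-values therefore measure only the spread between these samples.

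Macrophages clear dead cells and debris and take up iron and lipids, and their surface receptors reflect what they take up. Cd163 is the scavenger receptor for haptoglobin-hemoglobin complexes and is widely used as a marker of tissue macrophages. Cd209e belongs to the mouse family of C-type lectins related to human DC-SIGN, which bind sugars on microbes and cells. Cd84 is a receptor of the SLAM family that binds to itself on neighboring leukocytes and is not limited to macrophages. Alox15 encodes the mouse 12/15-lipoxygenase, which oxygenates polyunsaturated fatty acids and is known from resident peritoneal macrophages and eosinophils, and in monocytes and macrophages responds to interleukin 4 and interleukin 13.

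Promoters are shown because the genes were chosen as high in the same samples. They are those of the 3 receptors, and Alox15 is named only. Each runs from 250 bases before to 50 bases after the annotated start (RefSeq, GRCm38.p6, 300 bases, 5′ to 3′ on the gene's strand), and capitals mark every match to the motifs named after them. Cd163 lies at chr6:124304401-124304700 (+), Cd209e at chr8:3854237-3854536 (-) and Cd84 at chr1:171839447-171839746 (+).
Cd163: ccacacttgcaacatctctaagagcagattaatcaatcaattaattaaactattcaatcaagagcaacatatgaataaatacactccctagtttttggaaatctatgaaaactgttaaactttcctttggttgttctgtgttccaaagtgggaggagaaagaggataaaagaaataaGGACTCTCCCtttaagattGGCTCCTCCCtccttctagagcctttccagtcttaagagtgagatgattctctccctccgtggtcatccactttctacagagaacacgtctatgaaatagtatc
Cd209e: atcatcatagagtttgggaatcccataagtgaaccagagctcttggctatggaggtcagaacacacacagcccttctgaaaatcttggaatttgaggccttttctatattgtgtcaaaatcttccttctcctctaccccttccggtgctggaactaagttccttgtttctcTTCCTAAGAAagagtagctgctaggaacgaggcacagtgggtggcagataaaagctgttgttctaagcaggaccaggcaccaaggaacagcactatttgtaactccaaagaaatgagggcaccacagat
Cd84: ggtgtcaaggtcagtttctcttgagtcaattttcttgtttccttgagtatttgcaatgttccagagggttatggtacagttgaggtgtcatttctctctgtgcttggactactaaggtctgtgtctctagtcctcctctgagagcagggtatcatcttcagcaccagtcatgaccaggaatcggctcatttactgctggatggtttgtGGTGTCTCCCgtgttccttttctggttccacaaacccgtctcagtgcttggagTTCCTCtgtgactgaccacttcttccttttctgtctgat
Both strands were searched for 5 motifs, which were the ETS core GAGGAA bound by PU.1, the STAT6 motif (TTC and GAA with 4 bases between), the STAT motif TTCNNNGAA, the NF-kB motif (GGGA and CC with 4 bases between) and the TATA box TATAAA. Cd163 held the NF-kB motif as its reverse complement at -73 and -54, counted in bases from the start. Cd84 held it in the same orientation at -42 and the ETS core as its reverse complement at 11. Cd209e held the STAT6 motif at -79. No matches overlapped. Of 32851 promoters of this length, 20.7% held the NF-kB motif, 28.3% the ETS core and 6.95% the STAT6 motif. The STAT motif and the TATA box, found in 8.30% and 13.6% of promoters, were in none of the 3.

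Values are given as deposited, as log2(count + 1). After the scale factors were removed, total panel counts ran from 203509 to 989309 per sample. A limit was set in each sample at the mean plus 2 SD of the 8 negative control probes, which match no mouse RNA. It lay between 4.98 and 6.60 on the log2 scale, and 441 to 589 panel genes exceeded it. Where no sample of a group exceeds the limit, only a bound can be had, so a change is then written as at least some fold against the limit. No fold is given where that bound is under 1 or where both groups lie below the limit. No epithelial tumor marker of the list used here is on the panel, so the tumor cells themselves could not be checked. All 6 combination samples are among the 12 whose columns the authors had scaled, and the other 6 columns held whole numbers. Replicate 2 of the Treated Tumor combination stood apart from its group, and the comparisons of that group are given with and without it.

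Cd163 was high in most, but not all, combination samples of the Treated Tumor. It stood at 4.42, 10.33 and 8.71 in replicates 1, 2 and 3 of that group, 5.94 and 6.15 in HER2 DC1, 4.43 and 3.70 in anti-Semaphorin4D, and 3.17 and 3.93 in Untreated Control. Replicates 2 and 3 of the combination and replicate 1 of HER2 DC1 were the 3 samples of 18 above the limit. Replicate 1 of the combination lay below the limit, below both HER2 DC1 samples and level with the higher anti-Semaphorin4D sample. Across the Untreated Tumor, Cd163 stood at 2.30, 1.86 and 2.57 in the combination, 1.81 and 3.70 in HER2 DC1, 3.62 and 2.58 in anti-Semaphorin4D, and 2.81 and 1.84 in Untreated Control. All 9 Untreated Tumor samples lay below the limit, at 1 to 12 counts each before scaling, against 1140 counts in replicate 2 of the Treated Tumor combination.

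Cd209e was measured above the limit in a single sample, replicate 2 of the Treated Tumor combination. It stood at 3.95, 7.30 and 5.05 in that group, 2.85 and 3.17 in HER2 DC1, 2.78 and 2.32 in anti-Semaphorin4D, and 3.00 and 2.27 in Untreated Control. The 3 combination samples were the highest of the 18, with 17, 138 and 34 counts, but 2 of them cannot be told from background. Cd209e in the Untreated Tumor lay between 1.57 and 2.57 in the combination, 2.00 and 2.59 in HER2 DC1, 1.53 and 2.32 in anti-Semaphorin4D, and 1.58 and 1.84 in Untreated Control.

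Cd84 was the member measured most widely, above the limit in 17 of 18 samples. It stood at 9.05, 11.53 and 10.32 in the Treated Tumor combination, 8.60 and 8.23 in HER2 DC1, 7.47 and 6.98 in anti-Semaphorin4D, and 6.58 and 7.06 in Untreated Control. The combination samples lay above all others, HER2 DC1 came next, and the antibody and control groups overlapped. The Untreated Tumor values of Cd84 were 7.36, 7.53 and 8.42 in the combination, 6.21 and 6.97 in HER2 DC1, 6.42 and 6.52 in anti-Semaphorin4D, and 6.23 and 6.39 in Untreated Control. There too the 3 combination samples lay above the 6 others, replicate 3 being the highest. The sample at the limit was replicate 2 of anti-Semaphorin4D in the Untreated Tumor. With the limit at 3 SD in place of 2, 11 of 18 samples exceeded it. With the negative controls scaled like the genes, 15 of 18 did.

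Alox15 was above the limit in some samples of the arms with dendritic cells, in either kind of tumor, and in no sample of the other arms. It stood at 7.64, 10.88 and 9.16 in the Treated Tumor combination, 7.39 and 6.07 in HER2 DC1, 3.91 and 4.0 in anti-Semaphorin4D, and 3.81 and 3.40 in Untreated Control. All 3 combination samples and replicate 1 of HER2 DC1 exceeded the limit, and the antibody and control samples stood at 10 to 19 counts. The Untreated Tumor values of Alox15 were 4.88, 6.64 and 6.94 in the combination, 5.88 and 4.70 in HER2 DC1, 2.73 and 4.0 in anti-Semaphorin4D, and 4.09 and 4.25 in Untreated Control. Replicates 2 and 3 of the combination and replicate 1 of HER2 DC1 exceeded the limit there. In total 7 of 18 samples did. That HER2 DC1 sample held 23 counts before a scale factor of 2.51, while the negative controls were left unscaled. With the negative controls scaled like the genes it fell below the limit, and 6 of 18 samples exceeded it.

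**Figure D1:**
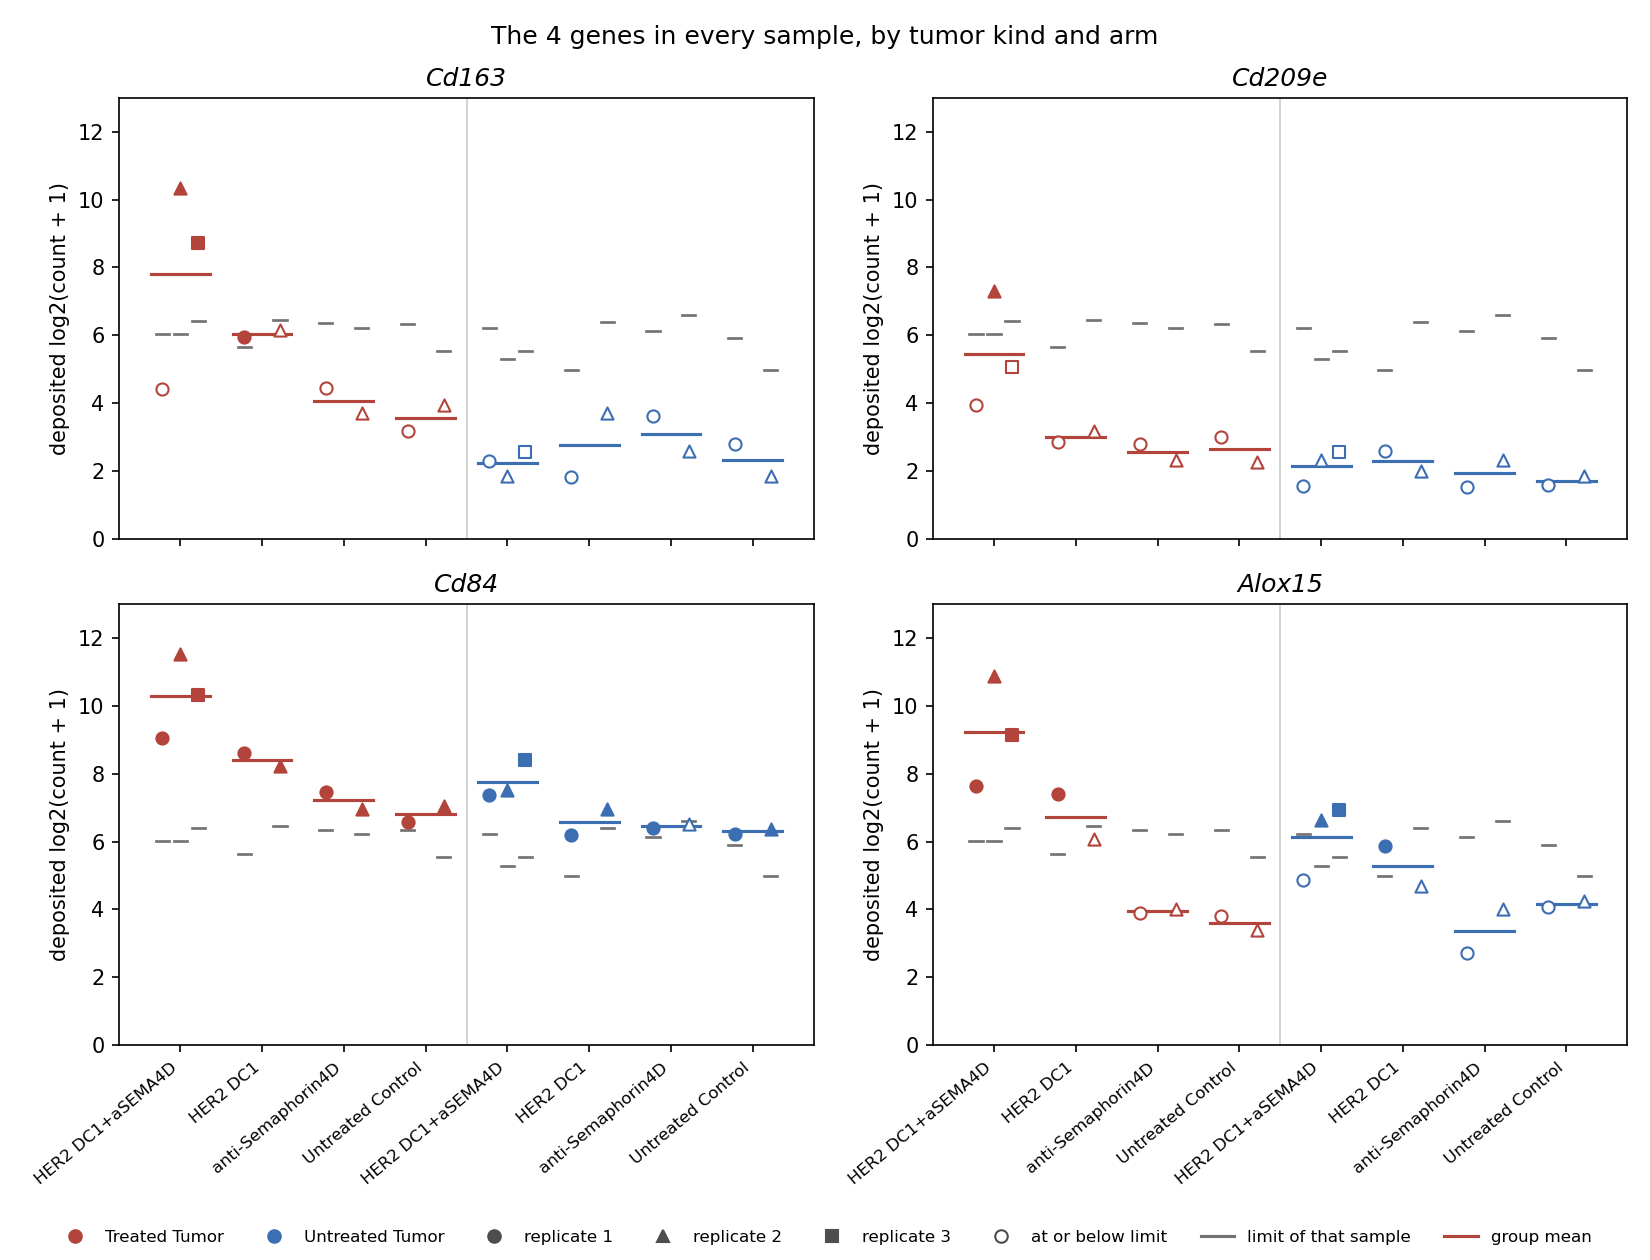
Deposited log2(count + 1) of the 4 genes in each of the 18 samples, with Treated Tumor groups left and Untreated Tumor groups right. Marker shapes give the replicate, short grey lines the limit of each sample, open markers values at or below it and long lines the group means. Replicate 2 of the Treated Tumor combination is the highest sample for all 4 genes, at 10.33 for Cd163, 7.30 for Cd209e, 11.53 for Cd84 and 10.88 for Alox15.

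All 4 genes were higher in the combination than in Untreated Control within the Treated Tumor, which restates how they were chosen and is given without a test. Alox15 averaged 9.23 ± 1.62 in the combination (SD, n = 3) and 3.60 ± 0.29 in control (SD, n = 2), at least 9.73-fold higher. Cd84 averaged 10.30 ± 1.24 against 6.82 ± 0.33, which is 11.1-fold higher. Cd163 averaged 7.82 ± 3.05 against 3.55 ± 0.54, at least 3.67-fold higher. Cd209e averaged 5.43 ± 1.70 against 2.63 ± 0.52, and since the combination mean lies below the controls' limit it has no fold. For all 4 genes every combination sample lay above both controls, as did 427 of the 768 panel genes (55.6%). The median log2 difference of the 4 was 3.87, beside 0.54 over the whole panel. More cells of a type and more RNA per cell cannot be told apart in RNA from whole tumor pieces.

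Against HER2 DC1 alone in the Treated Tumor, the mean of the combination was 5.65-fold higher for Alox15, 3.69-fold for Cd84 and 3.43-fold for Cd163. Cd163 overlapped between the groups, and for the other 3 genes every combination sample lay above both HER2 DC1 samples, as did 28% of panel genes. Against anti-Semaphorin4D, Cd84 was 8.43-fold higher, Alox15 at least 7.70-fold and Cd163 at least 2.91-fold, and again 3 of the 4 did not overlap, Cd163 being the exception, beside 52% of the panel. Within the combination, the Treated Tumor exceeded the Untreated Tumor 8.42-fold for Alox15, 5.76-fold for Cd84 and at least 4.40-fold for Cd163. There none of the 4 overlapped, beside 25.1% of the panel without overlap in that direction. These comparisons share the same 3 combination samples and describe the choice of the genes.

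Replicate 2 stood above its group in all 4 genes. It exceeded the mean of replicates 1 and 3 by 3.77 on the log2 scale for Cd163, 2.79 for Cd209e, 2.48 for Alox15 and 1.85 for Cd84, beside a panel median of 0.27. Replicate 1 lay below the limit for Cd163, and replicates 1 and 3 did for Cd209e, so these 2 excesses are read partly from background. With values below the limit set to it, an alternative chosen after seeing the data, the excess was 2.96 for Cd163, 2.48 for Alox15, 1.85 for Cd84 and 1.07 for Cd209e, and 1, 4, 26 and 88 panel genes had a larger one. Replicate 2 was highest and replicate 1 lowest for all 4 genes, an order shared by 330 of the 768 panel genes (43.0%). For Cd163, replicate 2 was 3.08-fold above replicate 3 and at least 19.8-fold above the limit of replicate 1. Before scaling, the depth of replicates 1, 2 and 3 was alike, with 844996, 904880 and 909415 panel counts. Their scale factors were 0.852, 1.13 and 0.947, which is also highest in replicate 2 and lowest in replicate 1. The part of scaling in the excess was not tested. As deposited, their median gene stood at 7.76, 8.23 and 7.97, against 7.26 and 7.30 in the Treated Tumor controls.

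**Figure D2:**
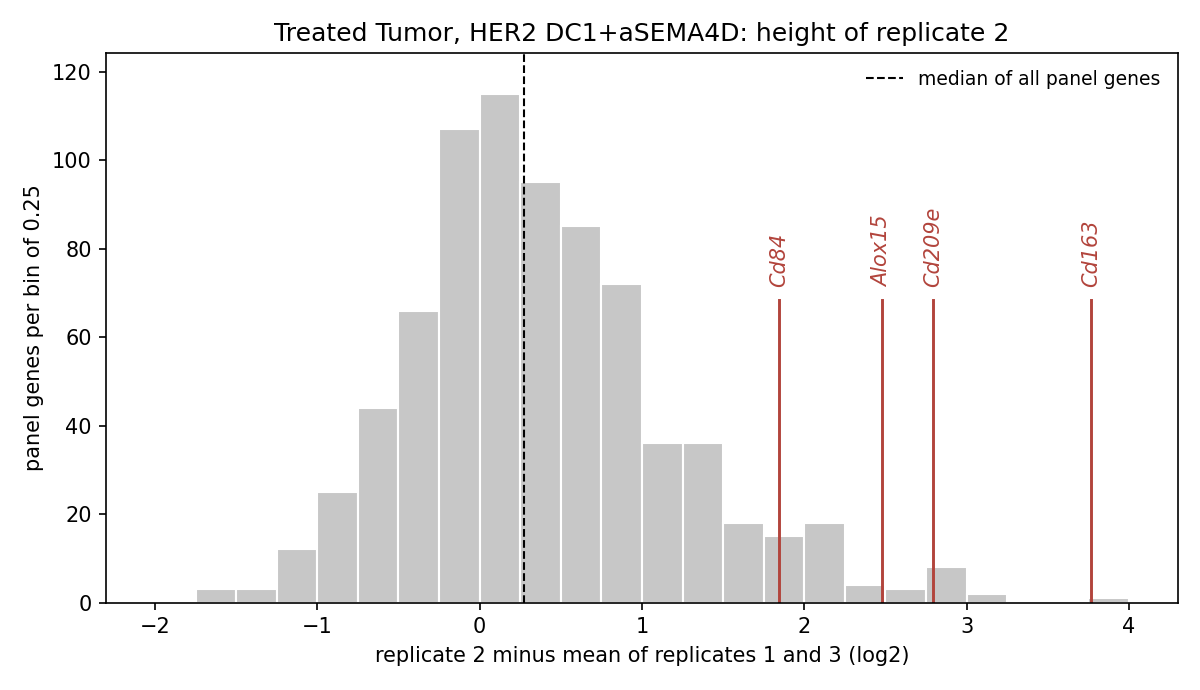
Number of panel genes (y axis, bins of 0.25) by the height of replicate 2 of the Treated Tumor combination over the mean of replicates 1 and 3 (x axis, log2). The dashed line is the panel median at 0.27, and the red lines at 1.85, 2.48, 2.79 and 3.77 are Cd84, Alox15, Cd209e and Cd163. Values below the limit are plotted as deposited, replicate 1 of Cd163 and replicates 1 and 3 of Cd209e among them.

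Without replicate 2, Cd84 was 7.28-fold higher in the combination than in control within the Treated Tumor, and Alox15 at least 5.49-fold, against 11.1-fold and at least 9.73-fold with it. For Cd163 the bound fell to at least 1.54-fold, against at least 3.67-fold with replicate 2, and of the remaining samples only replicate 3 exceeded the limit. Cd209e lay below the limit in both groups once replicate 2 was left out, so nothing measured remains of its difference from any of these groups. Against HER2 DC1 without replicate 2, Alox15 was 3.18-fold, Cd84 2.41-fold and Cd163 1.44-fold higher, the last with an SD of 3.03 on the log2 scale between the remaining samples. In replicate 1, Cd163 was lower than in either HER2 DC1 sample. Against anti-Semaphorin4D without replicate 2, Cd84 was 5.50-fold higher, Alox15 at least 4.34-fold and Cd163 at least 1.22-fold. For the Treated against the Untreated Tumor of the combination, with replicate 2 of the Treated Tumor left out, Alox15 was 4.75-fold higher, Cd84 3.76-fold and Cd163 at least 1.84-fold.

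Comparisons between groups other than the Treated Tumor combination were tested, 10 between pairs of groups and 2 between differences. Limma was fitted over all 18 samples, with p-values adjusted over the 768 genes (Benjamini-Hochberg). The spread of each gene was thus estimated with the Treated Tumor combination included, whose values chose the members. The Treated Tumor controls, over which the members stood high, enter the tests against control in that tumor. They also enter the test between the kinds of tumor in the control arm and both tests between differences. These tests are not independent of the choice. For Cd163 the SD of that group was 3.05, beside 0.15 in Treated Tumor HER2 DC1 and 0.54 in control. The SEs and intervals of the members are widened by it, and a missing call is not read as no difference. Only 1 member passed in 1 comparison. That was Alox15 in the Untreated Tumor, which rose in the combination, at 6.15 ± 1.11 (SD, n = 3), against 3.36 ± 0.90 in anti-Semaphorin4D (SD, n = 2). The log2 difference was 2.79 (SE 0.82, limma adjusted p = 0.0418), and all 3 combination samples lay above both antibody samples. In this comparison 12.5% of panel genes were called, 12.1% higher and 0.391% lower, so 1 member of 4 is not read as a result about the 4. Alox15 and Cd84 did not overlap between the groups, beside 50.5% of the panel. Both antibody samples and replicate 1 of the combination lay below the limit, and no fold can be given.
The call was lost in 7 of the 9 other settings tried, with adjusted p from 0.0581 when the kind of column was a block to 0.819 with values below the limit set to it. It was also lost without replicate 2 of the combination (adjusted p = 0.146), replicate 3 of the combination (0.137), replicate 1 of anti-Semaphorin4D (0.337) or replicate 2 of anti-Semaphorin4D (0.0724).

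Against Untreated Control in the Untreated Tumor, Cd84 averaged 7.77 ± 0.57 in the combination and 6.31 ± 0.11 in control, a log2 difference of 1.47 (95% interval 0.29 to 2.64, limma adjusted p = 0.0739). Alox15 averaged 6.15 ± 1.11 against 4.17 ± 0.12, a difference of 1.98 (0.21 to 3.76, adjusted p = 0.10), at least 1.63-fold since both controls lay below the limit. Neither passed, although the samples of both genes did not overlap between the groups, as for 47.9% of the panel. With limma, 0 of the 4 genes were called and 2 had an unadjusted p under 0.05, beside 15.8% of panel genes called higher, 1.04% lower and 16.8% in all. Without replicate 1 of the combination, Alox15 passed (adjusted p = 0.0431). Cd163 and Cd209e lay below the limit in both groups, with differences of -0.08 (-2.68 to 2.51) and 0.43 (-1.07 to 1.94). Against HER2 DC1 in the Untreated Tumor, Cd84 was 2.28-fold higher in the combination and Alox15 1.82-fold (limma adjusted p = 0.277 and 0.596), and no panel gene was called (0%, with 136 at an unadjusted p under 0.05). The Alox15 fold rests on HER2 DC1 replicate 1, which lies below the limit when the negative controls are scaled like the genes. Only Cd84 of the 4 did not overlap there, beside 23.4% of the panel. HER2 DC1 alone against control in the Untreated Tumor gave no call either (0%, with 70 at an unadjusted p under 0.05). There Alox15 differed by 1.12 (-0.82 to 3.06) and Cd84 by 0.28 (-1.01 to 1.57), and 2 of the 4, Alox15 and Cd209e, did not overlap, beside 27.3% of the panel, though Cd209e lay below the limit in both groups and Alox15 has no fold against the controls' limit.

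Dendritic cells alone in the Treated Tumor gave the next highest levels of Cd163, Cd84 and Alox15, without any call. The controls here are those over which the members stood high when chosen, so the differences are not independent of the choice. Against Untreated Control, Alox15 averaged 6.73 ± 0.94 in HER2 DC1 and 3.60 ± 0.29 in control, a log2 difference of 3.13 (95% interval 1.19 to 5.07, limma adjusted p = 0.288), at least 1.72-fold higher. Cd163 averaged 6.04 ± 0.15 against 3.55 ± 0.54, a difference of 2.49 (-0.35 to 5.34, adjusted p = 0.389), and since both controls lay below the limit the bound is at least 1.07-fold. Cd84 averaged 8.42 ± 0.27 against 6.82 ± 0.33, 3.02-fold higher (difference 1.60, 0.31 to 2.88, adjusted p = 0.349). Cd209e lay below the limit in both groups. Of the 4 genes, 3 did not overlap between the groups, beside 53.1% of the panel, and their median difference was 2.04 beside 0.35. With limma 0 of 768 genes (0%) passed in this comparison, and 109 had an unadjusted p under 0.05, Alox15 and Cd84 among them.

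Within HER2 DC1, the Treated Tumor exceeded the Untreated Tumor for all 4 genes without overlap, as for 33.5% of the panel. Cd209e lay below the limit in both groups and Cd163 in both Untreated Tumor samples, so that Cd163 was at least 1.28-fold higher and Cd209e has no fold, while Cd84 was 3.56-fold and Alox15 2.71-fold higher. With the negative controls scaled like the genes, both Untreated Tumor samples lie below the limit for Alox15, and its fold is then only a bound. The differences were 3.29 for Cd163 (0.44 to 6.13), 1.83 for Cd84 (0.54 to 3.12), 1.44 for Alox15 (-0.50 to 3.38) and 0.72 for Cd209e (-0.93 to 2.37), and limma called none of the 768 genes (0%, with 100 at an unadjusted p under 0.05). The adjusted p was 0.371 for Cd163 and Cd84, 0.446 for Alox15 and 0.665 for Cd209e. The difference between the Treated and the Untreated Tumor in the effect of HER2 DC1 over control was 2.06 for Cd163 (-1.96 to 6.08), 2.01 for Alox15 (-0.74 to 4.76) and 1.32 for Cd84 (-0.50 to 3.14), with a limma adjusted p of 0.9998 each. No panel gene was called (0%, with 10 at an unadjusted p under 0.05), and each interval spans 0.

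The antibody alone gave no call for any member. Its difference from control in the Treated Tumor was 0.40 for Cd84 (-0.88 to 1.69), 0.52 for Cd163 (-2.33 to 3.36), 0.35 for Alox15 (-1.59 to 2.29) and -0.08 for Cd209e (-1.73 to 1.57). Between the Untreated Tumor groups, Cd84 differed by 0.16 (-1.12 to 1.45) and Alox15 by -0.81 (-2.75 to 1.14). All limma adjusted p-values were 0.997 or higher, and 0 panel genes were called in either kind of tumor (0%, with 11 and 25 at an unadjusted p under 0.05). In each kind of tumor 1 of the 4 did not overlap, beside 16.7% of the panel in the Treated Tumor and 17.8% in the Untreated Tumor. The difference between the 2 kinds in the antibody's effect was 1.16 for Alox15 (-1.59 to 3.90) and 0.24 for Cd84 (-1.58 to 2.06), with an adjusted p of 0.999 (limma). Apart from Cd84, the members lay below the limit in all antibody and control samples, so only Cd84 carries a measured level there. No member passed between the Treated and the Untreated Tumor of the control or of the antibody arm (limma called 0% of the panel in both, with 50 and 14 genes at an unadjusted p under 0.05). Cd84 was 1.43-fold higher in the Treated Tumor of the control arm (adjusted p = 0.815) and 1.69-fold in the antibody arm (0.999). Of the 4 genes, 3 did not overlap in the control arm, beside 32.2% of the panel, and 2 in the antibody arm, beside 30.2%.

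**Figure D3:**
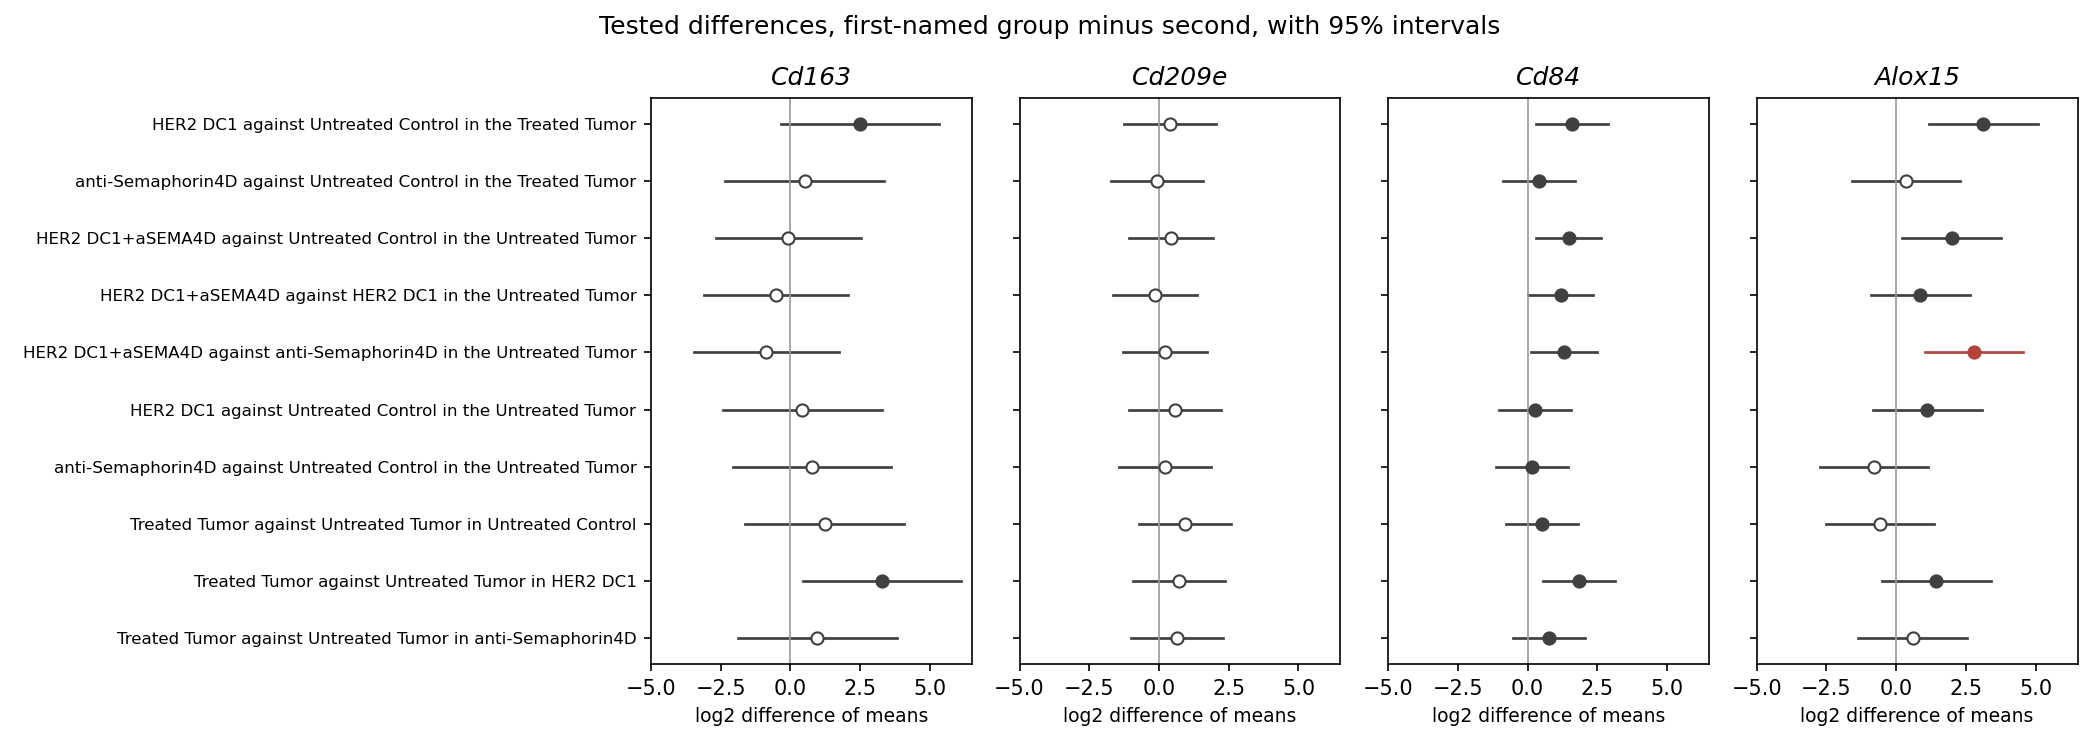
Log2 differences of group means (x axis, first-named group minus second) for each gene in the 10 tested pairs of groups (y axis), with 95% intervals from limma. Open markers are pairs with both groups below the limit, and the red marker is Alox15 in the combination against anti-Semaphorin4D in the Untreated Tumor, at 2.79, the only one with an adjusted p under 0.05.

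Ordered by mean, the Treated Tumor combination came first and Treated Tumor HER2 DC1 second for each of the 4 genes. For Cd163 these 2 groups differed by less than the larger of their SDs, and the 6 other groups lay below the limit in every sample and have no order among them. For Cd84 and Alox15 the Untreated Tumor combination came next, ahead of the Treated Tumor antibody and control groups. Neighbors of Cd84 that differed by less than their larger SD were the Untreated Tumor combination and Treated Tumor antibody, Treated Tumor control and Untreated Tumor HER2 DC1, and that group and Untreated Tumor antibody. For Alox15 the same held of the Treated Tumor HER2 DC1 and Untreated Tumor combination groups, and of the Untreated Tumor combination and Untreated Tumor HER2 DC1, at 5.29 ± 0.83. The 4 groups of the arms without dendritic cells came last for Alox15, below the limit in every sample and with no order among them. For Cd209e the 7 groups after the first lay below the limit in every sample, so the second place of HER2 DC1 is not a measured one.

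Of 44 genes listed for macrophages and monocytes, 13 are on the panel, and 11 of these are not members. Within the Treated Tumor, 5 of the 11 rose in the combination over control, 0 fell, and the median difference was 1.17 beside 0.54 for the panel, of which 35.4% was called higher and 3.39% lower. Since this comparison chose the members, nothing is read from these counts. The lists were also chosen with earlier results of these data known. The adjusted p-values of list genes in this comparison, here and in the following paragraphs, therefore only describe the values and lend the members no support. Cd68, a lysosomal glycoprotein of macrophages, stood at 9.60, 12.35 and 11.10 in the combination and 8.55 and 8.96 in control, 4.80-fold higher (limma adjusted p = 0.00835). Ms4a4a, a membrane protein of macrophages, stood at 8.52, 11.44 and 9.79 against 7.45 and 7.48, 5.46-fold higher (adjusted p = 0.00643). Hk3, the hexokinase of myeloid cells, stood at 7.81, 10.21 and 8.79 against 4.46 and 4.69, at least 7.97-fold higher (adjusted p = 0.000946). Replicate 2 was the highest sample for these 3 genes too. Hmox1, the heme oxygenase that degrades the heme brought in by Cd163, was 4.13-fold higher (8.38 ± 1.25 against 6.33 ± 0.23, adjusted p = 0.0128), and Cybb, the catalytic subunit of the phagocyte oxidase, 2.25-fold (9.76 ± 0.68 against 8.59 ± 0.04, adjusted p = 0.0466).
The 2 most abundant genes of the list did not pass. The lipid carrier Apoe stood at 14.21 ± 0.99 in the combination and 12.78 ± 0.43 in control (adjusted p = 0.0516), and the endotoxin coreceptor Cd14 at 11.98 ± 0.92 against 12.44 ± 0.26 (adjusted p = 0.349). The summed scaled counts of the 11 genes ran from 18262 to 49697 in the combination and from 12403 to 17084 in control. The count of 5 became 8 without replicate 1 of the combination, 2 without control replicate 1 and 3 without control replicate 2, where 38.4%, 15.9% and 17.1% of the panel were called higher. Without replicate 2 of the combination it was 4, beside 23.8%.

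In the comparisons between groups other than the Treated Tumor combination, few of the other macrophage genes were called. HER2 DC1 against control in the Treated Tumor had 0 of 11, as the panel had 0 of 768. Of the Untreated Tumor groups, Hk3 stood at 6.28, 7.97 and 8.34 in the combination and 3.81 and 4.44 in control, at least 4.21-fold higher (log2 difference 3.40, SE 0.63, limma adjusted p = 0.00819). It was the only one of the 11 called there and in the combination against anti-Semaphorin4D (at least 2.23-fold higher, adjusted p = 0.0106), beside 16.8% and 12.5% of the panel. The first call was lost without control replicate 2 (adjusted p = 0.0816), and the second without anti-Semaphorin4D replicate 1 (0.204) or 2 (0.0514) or replicate 2 of the combination (0.0520). Both were also lost with only the groups compared in the fit (0.0621 and 0.0608) and with values below the limit set to it (0.0631 and 0.265). The median difference of the 11 genes over control was 0.14, beside 0.45 for the panel. Ms4a4a, at 7.28 ± 0.35 in the combination and 7.45 ± 0.07 in control, and Cd68, at 9.09 ± 0.60 and 8.42 ± 0.01, did not pass in the Untreated Tumor (adjusted p = 0.857 and 0.409).

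**Figure D4:**
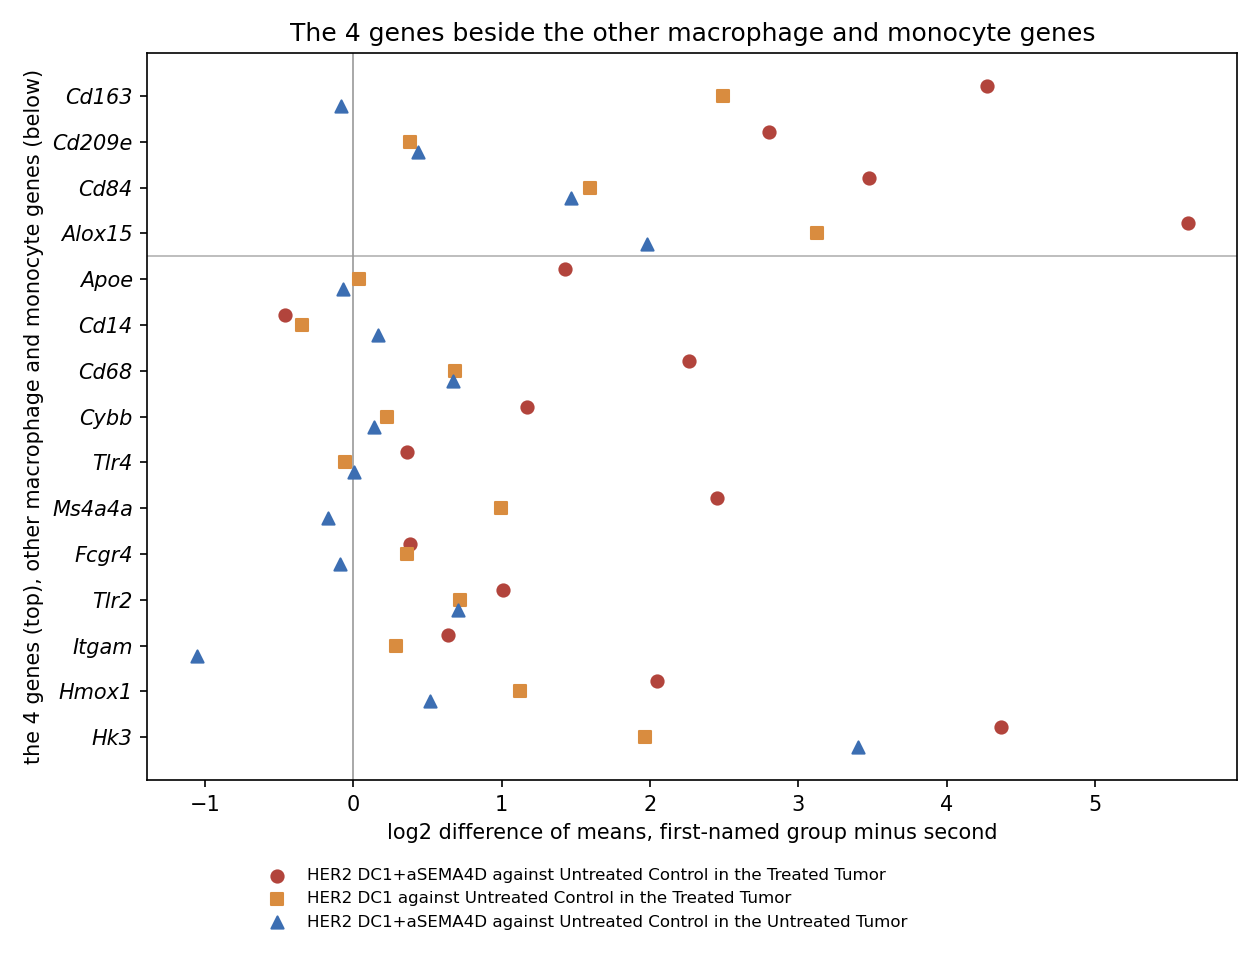
Log2 differences of group means (x axis) for the 4 genes and the 11 other measured macrophage and monocyte genes (y axis), without error bars. Circles are the combination against control in the Treated Tumor, squares HER2 DC1 against control there, and triangles the combination against control in the Untreated Tumor. Alox15, at 5.63, lies farthest right, and Hk3 has the highest triangle value, 3.40.

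Alox15 belongs to a list of 39 lipoxygenase, cyclooxygenase and eicosanoid genes, of which 11 others were measured. Within the Treated Tumor, 7 of the 11 rose in the combination over control, 0 fell, and the median was 1.87 (panel 35.4% called higher, median 0.54). The count was 4 without replicate 2 of the combination, 2 without control replicate 1 and 3 without control replicate 2. Ptges, the prostaglandin E synthase, averaged 7.72 ± 0.76 against 5.51 ± 0.22 (at least 3.41-fold higher, limma adjusted p = 0.00194). Alox5, which starts leukotriene synthesis, averaged 7.10 ± 1.49 against 4.78 ± 0.28 (at least 2.22-fold, adjusted p = 0.010). The related lipoxygenase Alox12 stayed below the limit in all 18 samples, at 3.57 ± 0.48 against 2.55 ± 0.78. The peroxidases Gpx1 and Gpx4 and the cyclooxygenase Ptgs1, which with the leukotriene A4 hydrolase Lta4h were the most abundant of the list, did not pass, at 12.55 ± 0.39 against 12.11 ± 0.16, 11.63 ± 0.39 against 12.07 ± 0.47 and 9.76 ± 0.10 against 9.60 ± 0.07 (adjusted p = 0.199, 0.434 and 0.499), while Lta4h rose 1.75-fold (8.97 ± 0.31 against 8.16 ± 0.00, adjusted p = 0.0214).
Between the Untreated Tumor groups, 2 of the 11 were called in the combination over control, beside 16.8% of the panel. Ptges stood at 6.38, 7.30 and 7.14 against 5.49 and 5.49 (2.73-fold higher, limma adjusted p = 0.0257), and the prostaglandin E receptor Ptger4 stood at 4.93 ± 0.28 against 2.32 ± 0.68, below the limit in both groups (adjusted p = 0.0196). Ptges was also called against anti-Semaphorin4D (at least 1.49-fold, adjusted p = 0.0418). Without Untreated Tumor control replicate 2, Ptges and Ptger4 no longer passed against control (adjusted p = 0.164 and 0.183), nor did they without replicate 2 (0.109 and 0.0759) or replicate 3 of the combination (0.0787 and 0.0597), nor Ptges without control replicate 1 (0.0642). Against anti-Semaphorin4D, Ptges was lost without replicate 2 (0.154) or 3 (0.134) of the combination or replicate 1 (0.259) or 2 (0.162) of anti-Semaphorin4D. In all, the call of Ptges was lost in 8 of 14 alternatives against control and in 11 of 14 against anti-Semaphorin4D, with the replicate block (0.060) and with column kind as a block (0.0533) among the 11. Against control the other losses of Ptges were with median (0.0744) and housekeeping centring (0.0790), only the groups compared (0.0695) and values below the limit set to it (0.0631). Ptger4 was lost in 4 of 14, and with values below the limit set to it its difference of 2.61 became 0.23 (adjusted p = 0.739).

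Genes linked to interleukin 4 and interleukin 13 were sparse on the panel, with 6 of 28 listed. In the Treated Tumor combination 4 of the 6 were called higher over control, beside 35.4% of the panel, and nothing particular to these genes is read from the count. Of the 4, Stat6, the transcription factor that relays both cytokines, was measured in every sample (9.75 ± 0.50 against 8.77 ± 0.03, 1.98-fold higher, limma adjusted p = 0.0128). Arg1, an arginase of alternatively activated macrophages, stood at 13.69 ± 1.41 against 12.32 ± 0.21 and did not pass (adjusted p = 0.0761). Il4 exceeded the limit in 1 of 18 samples, and Irf4, a transcription factor of alternative activation and dendritic cells, in 2. The 2 remaining genes of the 6 lay below the limit in every sample. Since Arg1 did not pass, at least 1 of these 2 is among the 4 called. The count was 1 of 6 without control replicate 1 and 2 without control replicate 2. Of the dendritic cell and C-type lectin list, 3 of 32 genes besides Cd209e were measured. Irf4 and Hsd11b1, the enzyme that activates glucocorticoids, were called higher in the Treated Tumor combination (6.29 ± 1.46 against 3.74 ± 0.40 and 7.48 ± 1.16 against 4.95 ± 0.21, adjusted p = 0.00865 and 0.00245; 1 of the 3 called without control replicate 1), and the dendritic cell growth factor receptor Flt3 was not (5.50 ± 0.77 against 4.55 ± 0.54, adjusted p = 0.121). Of the SLAM list, Cd84's relative Cd244a and the adaptor Sh2d1a were measured and neither passed (4.74 ± 0.59 against 4.66 ± 0.29 and 5.53 ± 1.16 against 4.35 ± 0.24).

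Markers of other cell types moved in the same samples as the 4 genes, and their part in the members' levels was not tested. The leukocyte genes Ptprc and Itgb2 had summed scaled counts of 1907 to 9620 in the Treated Tumor combination and 649 to 665 in control. Both were called higher there, at 11.19 ± 0.96 against 8.68 ± 0.00 and 10.92 ± 1.42 against 7.96 ± 0.07. Of 15 T cell genes, 13 above the limit in some sample, 11 were called, with sums of 1198 to 4276 against 397 to 401. Over the whole panel 35.4% of genes were called higher in this comparison, and the counts of this and the following lists stand beside that share. The T cell receptor subunit Cd3g was 7.19-fold higher and the kinase Lck 5.16-fold, and the subunit Cd3d, at 7.94 ± 0.41 against 7.29 ± 0.23, did not pass. The defining cytotoxic T cell genes Cd8a and Cd8b1 lay below the limit in all 18 samples.
Of 11 natural killer and cytotoxic genes 8 were called, with sums of 1349 to 6330 against 552 to 585, among them the granzyme Gzma (10.2-fold higher), Nkg7 (8.37-fold), Klrd1 (4.57-fold) and Ctsw (3.15-fold). The 8 became 5 without control replicate 1 and 3 without control replicate 2. Both fibroblast genes measured, Col6a1 (15.5-fold) and Pdgfrb (at least 2.09-fold), were called, with sums of 731 to 2289 against 98.96 to 103, and 1 of them without control replicate 2. The endothelial gene Flt1 was called too (at least 2.37-fold), but not without control replicate 2. Of the eosinophil list only Siglecf was measured, at 3.78, 7.53 and 5.78 in the Treated Tumor combination and 3.58 and 3.52 in control. It exceeded the limit in replicate 2 alone, the sample in which Alox15 was also highest. It was called (limma adjusted p = 0.0470), but not without replicate 2, replicate 3 or either control.
Of 4 neutrophil genes 1 was called, Csf3r (4.98-fold higher), while Ceacam3, Fpr1 and Mpo lay below the limit in both groups, at 3.73 against 3.49, 3.73 against 3.80 and 3.61 against 3.21. Of 6 mast cell genes 1 was called, Hdc (at least 1.25-fold), and Fcer1a, Ms4a2 and Cpa3, at 5.11 against 4.67, 4.50 against 4.65 and 5.18 against 3.78, did not pass. Of 7 B cell and plasma cell genes 1 was called, Blk, which lay below the limit in all 18 samples. The most abundant, Ms4a1, Spib, Pnoc and Tcl1, stood at 4.87 against 5.29, 5.78 against 4.74, 3.92 against 4.22 and 3.57 against 3.43 and did not pass. The shares called of the neutrophil, mast cell and B cell lists, 25%, 16.7% and 14.3%, lay under the panel's 35.4%. Hdc was lost without replicate 2 of the combination or either control, and Blk without any of these or replicate 3. Panel depth was also higher in the Treated Tumor combination, at 844996 to 909415 counts against 624529 and 738234 in control.
Beside the Alox15 call in the Untreated Tumor, the summed counts of Ptprc and Itgb2 ran from 1150 to 2342 in the combination and from 602 to 672 in anti-Semaphorin4D. Those of the T cell genes ran from 492 to 1022 against 348 to 411, with 3 of the 15 called (Cd4, Lat and Zap70), beside 12.5% of the panel. Siglecf lay below the limit in all of these samples.

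The panel genes most like each member were found by Pearson correlation of the log2 values over the 18 samples. The search covered the 583 other genes (584 for Cd209e) above the limit in at least 3 samples, with the 20 housekeeping genes left out. The samples share library depth, scaling and the group chosen for its high values, so r is also given for the 15 samples outside that group. Cd163 was most like Ms4a4a (r = 0.93, rho = 0.75, r = 0.88 without replicate 2 of that group and 0.76 in the 15 samples), followed by the lysosomal hexosaminidase Hexa, the creatine synthesis enzyme Gatm, Hmox1 and the lysosomal protease Ctsl (r from 0.90 to 0.93, 0.56 to 0.78 in 15 samples). Since 15 of its 18 values lie below the limit, this rests mostly on 3 samples. Cd209e was most like Ms4a4a (r = 0.94, rho = 0.75, r = 0.84 without replicate 2 and 0.53 in 15 samples). Next came Cd68, the glutamate dehydrogenase Glud1, the lysosomal phospholipase Pla2g15 and Cd84, with r of only 0.46, 0.37, 0.25 and 0.52 in the 15 samples. All but 1 of the Cd209e values lie below the limit.
Cd84 was most like Btk, the tyrosine kinase of B cells and myeloid cells (r = 0.99, rho = 0.98, r = 0.98 without replicate 2 and 0.95 in 15 samples), then the lysosomal glucuronidase Gusb, the NAD kinase Nadk, Glud1 and the growth factor Pdgfb (r from 0.96 to 0.97, 0.87 to 0.92 in 15 samples). Alox15 was most like Ptprc, the common leukocyte antigen CD45 (r = 0.98, rho = 0.93, r = 0.96 without replicate 2 and 0.94 in 15 samples), then the T cell kinase Zap70, the PD-1 ligand Pdcd1lg2, the T cell kinase Lck and the costimulator Cd28 (each with r = 0.96, 0.87 to 0.92 in 15 samples). In the 15 samples Cd28 lay below the limit throughout, as did most values of Alox15, Zap70, Pdcd1lg2, Lck and Btk. The r of these genes in the 15 samples therefore rests largely on background. Among the members, the pair Cd84 and Alox15 had the highest r (0.91, 0.72 in 15 samples), and Cd163 and Alox15 the lowest (0.71, 0.13 in 15 samples).

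**Figure D5:**
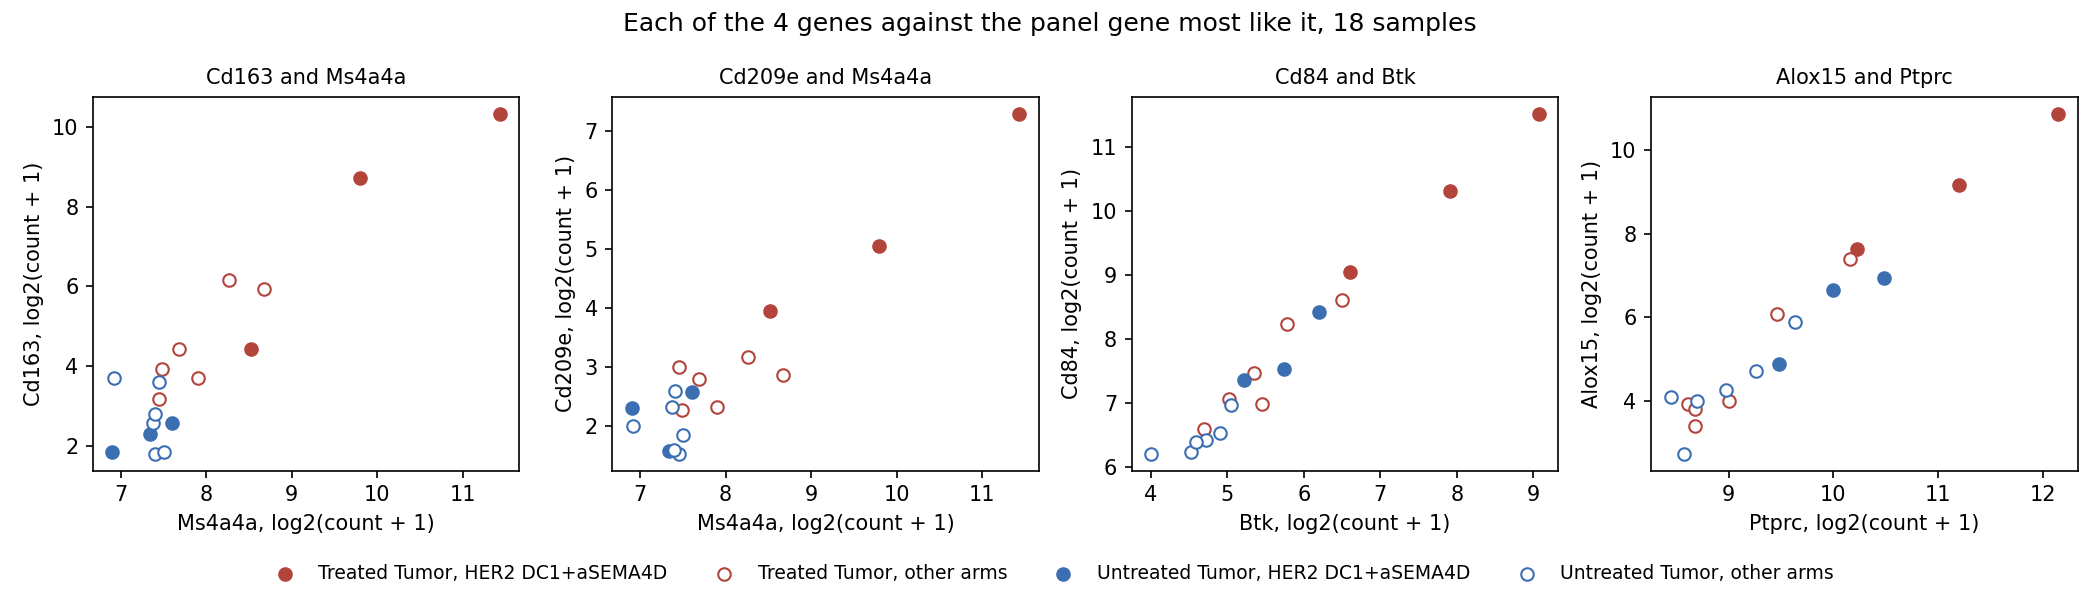
Log2(count + 1) of each member (y axis) against the panel gene most like it (x axis) in the 18 samples, with Treated Tumor in red, Untreated Tumor in blue and the combination filled. Over all 18 samples r is 0.93 for Cd163 with Ms4a4a, 0.94 for Cd209e with Ms4a4a, 0.99 for Cd84 with Btk and 0.98 for Alox15 with Ptprc. Replicate 2 of the Treated Tumor combination lies farthest up and right in each panel.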

How the data were processed

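The values are log2 values deposited by the authors as log2(count + 1) per gene. The submitters' processing notes name limma, with no version; no source used here states background subtraction, scaling or filters. Read from the values, 12 columns were scaled by 1 factor each (0.736 to 2.58) and 6 held whole numbers, and control probes were unscaled; at least 97.0% of counts up to 500 came out whole within 0.05 after the factor was removed. Samples were grouped by title. Group means were compared in limma 3.58.1 (R 4.3.3; lmFit and eBayes, 18 samples, 8 groups, no covariate, 10 residual and 3.02 prior degrees of freedom), with adjustment over 768 genes and a threshold of 0.05, and the procedure was tested on simulated data. The limit on the log2 scale is higher than the same limit taken on counts (4.37 to 5.75). Named were the 4 members, the 5 genes most like each, the 4 most abundant genes of each list (1 is not reported here), and up to 6 genes past a tested comparison in each of the macrophage, dendritic, SLAM and eicosanoid lists. Alox5, Alox12, Cd4, Cd8a, Cd8b1, Lat and Blk were named after their values were seen. The members and lists (15) were chosen with earlier results of these data known. Alternatives were other scalings, limits, filters, a pseudocount of 20, blocks and each sample left out. Other software was Python (3.11.15) with pandas (2.3.3), scipy (1.17.1), numpy (2.4.6) and matplotlib (3.10.9).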

Additional observations from a re-analysis of the deposited data

How the results depend on the processing

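Of the counts of members or of samples above the limit, recomputed under each alternative, 199 stayed the same or within 1.5 times and 13 did not. The count of members called for the combination against anti-Semaphorin4D in the Untreated Tumor was 1 (Alox15) and became 0 with column kind as a blocking term, with housekeeping or median centring, with only the groups compared, with a pseudocount of 20, with the replicate block and with values below the limit set to it, and ranged from 0 to 1 when samples were left out. For Alox15 these gave adjusted p-values of 0.0581, 0.0670, 0.0848, 0.0616, 0.125, 0.090 and 0.819, and it was called with trend and robust moderation (0.0336) and with the filter on low values (0.0319), which kept 620 genes and dropped Cd209e. The count for the combination against Untreated Control in the Untreated Tumor ranged from 0 to 1 when samples were left out. Cd84 exceeded the limit in 11 samples, not 17, at the mean plus 3 SD. The cause was not tested. Among single-gene values none that was called reversed; 35 uncalled values moved (adjusted p from 0.312 to 1), the single call, of Alox15, was lost under 11 alternatives, and Alox15 gained a call under 1. Replicate numbers are not said to mark shared animals. Deviations from the group means of same-numbered samples of the 2 kinds of tumor correlated at -0.07 to 0.52. In groups of 2 samples the 2 deviations mirror each other, so both numbers give the same r. The 5 of 9 pairs over 0.1 include such repeats. Of the combination samples, 1 of 3 was closest to its own number. For the members the replicate block is therefore given only here, and it changed no other call of a member. Added after seeing the data, limits from counts on the linear scale or with scaled negative controls put Cd163 above the limit in 4 or 3 samples, Cd209e in 1 or 1, Cd84 in 18 or 15 and Alox15 in 8 or 6, and the linear limit raised the bounds for the combination against control in the Treated Tumor to 6.08-fold for Cd163 and 16.1-fold for Alox15. The limit at the mean plus 3 SD lowered them to 1.56-fold and 4.13-fold, and made Cd163 against HER2 DC1 at least 1.48-fold, not 3.43-fold; the highest negative control probe as limit gave 6.56-fold and 17.4-fold. Cd163 and Cd209e had under 20 counts in most samples.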
